A study of Rattus norvegicus with 5 samples.

Results

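Krüppel-like factors (Klf) are transcription factors, and 10 of their genes, Klf2, Klf3, Klf4, Klf5, Klf6, Klf9, Klf10, Klf11, Klf13 and Klf15, were followed in rat thyroid cells grown flat or as follicles. The genes were found by matching the reference accession of each array probe to the rat gene symbol. They make up 10 of 15154 genes and 12 of 30367 probes, since Klf3 and Klf5 have 2 probes each and the other members 1.

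FRT cells are an epithelial line derived from the thyroid of the Fischer rat. In 2D culture they form a polarized confluent monolayer, and in 3D culture single cells embedded in Matrigel, a gel of basement membrane proteins, grow into hollow follicle-like structures. Total RNA was taken on day 5 of both kinds of culture (the labels name no transgene and no drug), and the comparison asks which genes differ between follicles and monolayers. On 4 Agilent 2-colour arrays, the RNA of 1 of 4 biological replicates of the 3D culture carried the dye Cy5 and a pool of 4 replicates of the 2D culture carried Cy3. The fifth array swapped the dyes, with the 2D pool in Cy5 against pooled RNA of the 3D replicates in Cy3. The 2D cultures were never measured singly, and the spread between them is unknown. All cultures are of 1 cell line, and the gel comes with the 3D condition and cannot be told apart from the shape of the culture.

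Klf proteins bind GC-rich and CACCC-containing DNA through a conserved set of zinc fingers at their carboxyl end. The family is commonly divided by the rest of the protein into a group that mostly activates transcription, to which Klf2, Klf4, Klf5 and Klf6 belong, a group that recruits the corepressor CtBP, represented here by Klf3, and a group that recruits the corepressor Sin3, with Klf9, Klf10, Klf11 and Klf13. Klf15 stands outside these groups. In epithelia, Klf4 is known for differentiation and exit from the cell cycle, Klf5 for proliferation, and Klf10 and Klf11 as early genes of the TGF-β response.

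Of the members, 3 have a promoter window in the RefSeq table of build GRCr8 that lies wholly outside the annotated gene. These are the 250 bases before the gene start of Klf5 (chr15:82471831-82472080, + strand), Klf6 (chr17:69458479-69458728, - strand) and Klf9 (chr1:230126396-230126645, + strand). They are printed 5′ to 3′ on the strand of the gene, because they lie outside the annotated gene. Capitals mark CACCC (or GGGTG on the other strand), the core of the sites that Klf proteins bind, GGGCGG (or CCGCCC), the GC box, and CCAAT (or ATTGG), the site of the factor NF-Y.
Klf5: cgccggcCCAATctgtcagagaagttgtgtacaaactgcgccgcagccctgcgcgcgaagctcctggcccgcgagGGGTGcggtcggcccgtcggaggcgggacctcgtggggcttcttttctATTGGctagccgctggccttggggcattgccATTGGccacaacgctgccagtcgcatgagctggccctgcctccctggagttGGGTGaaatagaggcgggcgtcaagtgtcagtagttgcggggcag
Klf6: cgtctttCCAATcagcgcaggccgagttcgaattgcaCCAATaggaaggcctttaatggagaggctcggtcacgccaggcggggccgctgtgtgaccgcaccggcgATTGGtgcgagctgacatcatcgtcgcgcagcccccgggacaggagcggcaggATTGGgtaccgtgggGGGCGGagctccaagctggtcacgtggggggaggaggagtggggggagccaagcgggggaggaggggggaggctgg
Klf9: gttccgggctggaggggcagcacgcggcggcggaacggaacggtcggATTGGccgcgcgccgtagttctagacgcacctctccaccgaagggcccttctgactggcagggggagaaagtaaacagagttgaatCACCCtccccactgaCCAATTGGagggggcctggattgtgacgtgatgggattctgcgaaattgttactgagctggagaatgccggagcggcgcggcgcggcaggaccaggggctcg

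Each of the 3 windows holds at least 3 CCAAT boxes on either strand. Klf5 and Klf9 have 3 and Klf6 has 4, and in Klf9 a pair overlaps in the palindrome CCAATTGG. Among all 33469 promoter windows of the same length, 34% hold a CCAAT box and 2.52% hold 3 or more, a limit that was chosen after these counts were seen. The windows of the other members in the table hold fewer, with 1 in Klf3, Klf11 and Klf15 and 0 in Klf4. CACCC boxes occur 2 times in Klf5, 1 time in Klf9 and not in the Klf6 window, against 49.2% of all windows with at least 1. The GC box, present in 30.5% of all windows, was found 1 time in Klf6 and not in the Klf5 or Klf9 window. Among the other members in the table, Klf11 holds 7 GC boxes and Klf3, Klf4 and Klf15 hold 0. CACCC boxes occur there 4 times in Klf3, 1 time in Klf15 and 0 times in Klf4 and Klf11. The 3 printed windows are 65.2% (Klf5), 67.2% (Klf6) and 63.6% (Klf9) G or C, above the median of 51.2% over all windows. These matches describe letters and not occupied sites. Of the other members, Klf3, Klf4, Klf11 and Klf15 have windows that overlap their annotated genes and are not shown. Klf2, Klf10 and Klf13 are not in the table used here.

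Each value below is a log2 ratio of 3D over 2D, so that 1 stands for a 2-fold higher level in follicles, after background correction and normalization of the spot intensities. Ratios are given in the order of 3D replicates 1, 2, 3 and 4 and then the array with swapped dyes, turned to the same direction. The brightest probe stood for a gene, which was tested against a ratio of 0 with limma over the 5 arrays, and it was called at a false discovery rate (FDR) below 0.01 over all genes. The swapped array holds RNA of the same cultures and adds no independent culture. In bulk RNA a change per cell cannot be told apart from a change in the kinds of cells present.

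The Klf genes were mostly higher in follicles. Of the 10 members, 6 rose in 3D culture (Klf3, Klf4, Klf5, Klf9, Klf10 and Klf11), 0 passed as lower, and 4 were not called (Klf2, Klf6, Klf13 and Klf15). At an unadjusted p under 0.05 in limma, 7 were higher (Klf13 in addition) and 1 was lower (Klf6). Over all genes 25.9% were called, 14.4% as higher and 11.5% as lower, and among the 9018 genes well above background in at least 1 condition 43.4% were called in either direction. The median ratio of the members was 0.44, while that of all genes was 0.003. All changes were moderate, with Klf10 at 1.71-fold and Klf11 at 1.54-fold the largest, and 0 members reached 2-fold. On every one of the 5 arrays at least 8 of the 10 members lay above 0, and their median on an array ran from 0.23 (3D replicate 1) to 0.44 (3D replicate 2).

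**Figure D1:**
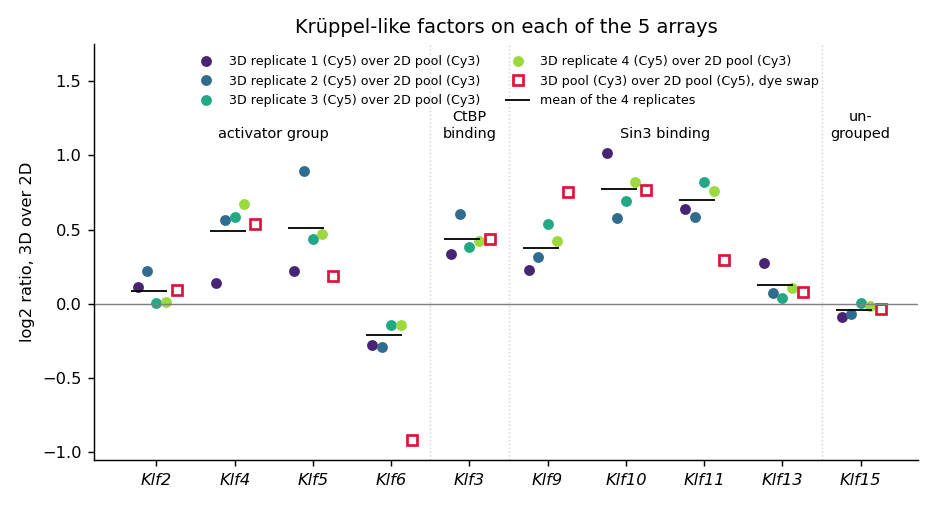
Log2 ratio of 3D over 2D (vertical axis) of the 10 Klf genes (horizontal axis, ordered by cofactor group) on each array. Filled circles are the 4 replicate arrays, bars their mean, and open squares the array with swapped dyes. Klf10 lay between 0.58 and 1.02 on all 5 arrays, and Klf6 below 0 on all 5, with the swapped array at −0.92.

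Of the members, 8 were well above the local background in both conditions on all 5 arrays. Klf2 passed this limit in 3D on 2 arrays and in 2D on none, and Klf15 on none in either condition, so that the ratios of these genes rest on signals near background. Background-level probes are drawn towards a ratio of 0 by the offset used here. The markers of the line were those of an epithelium, since all 9 epithelial markers were above background, while the defining thyroid genes Tg, Tshr, Slc5a5 and Nkx2-1 were not. Of the thyroid transcription factors, Pax8, Foxe1 and Hhex were above background on all 5 arrays in both conditions, as was the oxidase Duox2. Pax8, the marker of the line, had a ratio of 0.71 (adjusted p = 0.00131), with 0.65 to 1.02 over the replicates and 0.05 in the dye swap. Its dye term passed (0.41, adjusted p = 0.00882), and beside that term the ratio was 0.46 (adjusted p = 0.000412). Markers of other cell types were above background for 4 of 8 fibroblast, 1 of 6 endothelial, 3 of 8 leukocyte and 2 of 6 C cell genes, with 1 called as higher (fibroblast list) and 0 as lower. At an unadjusted p under 0.05 in limma, 2 fibroblast genes were higher and 1 lower, and 0 genes of the other 3 lists passed. Summed fibroblast signal was 736 to 871 units in 3D and 682 to 709 in 2D, against 38270 to 45390 and 37965 to 41085 for the epithelial list. These sums include the offset, so that genes not above background add to them. The endothelial list, with 1 of 6 genes above background, summed to 390 to 410 units in 3D. The part of other cells in the Klf ratios was not tested.

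Within the activator group, the members parted. Klf4, a factor of differentiating epithelia, had ratios of 0.14, 0.57, 0.58, 0.67 and 0.54. Replicate 1 was low and the other 4 arrays lay close together, all above 0. The fitted ratio was 0.50 (SE 0.07, 95% CI 0.34 to 0.66), or 1.41-fold, with an adjusted p of 0.000406, and the 4 replicates gave 0.49 ± 0.24 (SD, n = 4). The call was lost without an offset in the background correction (adjusted p = 0.0116) and with median centring in place of loess (adjusted p = 0.11), where the ratio itself was 0.54 and 1.00.

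Klf5, which is linked to proliferation of basal and crypt epithelium, was read by both its probes. The probe with 10 spots per array gave 0.22, 0.90, 0.44, 0.47 and 0.19. Replicate 2 stood above the other arrays, and no array was below 0. The 4 replicates gave 0.51 ± 0.28 (SD, n = 4). The 8 to 10 spots used on an array differed by an SD of 0.04 to 0.09, which leaves out the error of labelling and hybridization. The second probe, with 1 spot per array, gave 0.54, 0.87, 0.37, 0.50 and 0.02, again with replicate 2 highest and the swapped array lowest. In the fit over probes, in which 22% of all probes were called, both passed, with ratios of 0.44 (adjusted p = 0.00341) and 0.46 (adjusted p = 0.00404).

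The fitted gene ratio of Klf5 was 0.44 (SE 0.09, 95% CI 0.24 to 0.65, adjusted p = 0.0039). Of the 6 members called, it had the weakest hold, since 6 of 13 alternative settings ended the call. These were a dye term (ratio 0.35, adjusted p = 0.0246), omission of replicate 3 (adjusted p = 0.0162) or replicate 4 (adjusted p = 0.0172), Agilent's processed signals (adjusted p = 0.0272), a background offset of 0 (adjusted p = 0.0353) and median centring (adjusted p = 0.166, with the ratio at 0.95).

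Klf6, a ubiquitous factor first known as an early gene of tissue injury, went the other way. Its ratios were −0.28, −0.29, −0.14, −0.14 and −0.92. All 5 arrays lay below 0, and the swapped array lay far below the 4 replicates, whose mean was −0.21 ± 0.08 (SD, n = 4). The fit over the 5 arrays gave −0.35 (SE 0.10, 95% CI −0.58 to −0.12, adjusted p = 0.0244), which missed the threshold. Once the dye was fitted as well it passed, with a ratio of −0.56 (adjusted p = 2.01e-05), as it did without the swapped array (−0.21, adjusted p = 0.00323) and in the deposited value table (−0.40, adjusted p = 0.0058). The ratio of −0.56 lies midway between the replicate mean and the swapped array, which the model with a dye term fits exactly. Median centring in place of loess turned the sign to 0.17, with an adjusted p of 0.702.

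Klf2, the shear-responsive factor of endothelium, had ratios of 0.12, 0.22, 0.01, 0.01 and 0.09. None was below 0, but 2 replicates were at 0.01, on raw spot signals of 42 to 89 units in 3D and 36 to 72 in 2D. The fitted ratio was 0.09 (95% CI −0.01 to 0.19, adjusted p = 0.171). With no array above background in 2D and 3 of 5 below the limit in 3D, no lower bound on a fold is given. Agilent's processed signals gave 0.73 and also no call (adjusted p = 0.0405).

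Among the called members, Klf3, the CtBP-binding repressor, had the narrowest range over the 5 arrays by its brighter probe. Its probe with 10 spots per array read 0.34, 0.61, 0.38, 0.42 and 0.44. The swapped array fell in the middle of the replicates, and all 5 values were well clear of 0. The fitted ratio was 0.44 (SE 0.05, 95% CI 0.33 to 0.55, adjusted p = 7.06e-05), or 1.35-fold, and the call was lost only with median centring (adjusted p = 0.137) among 13 settings. With a dye term added to them, Agilent's processed signals (adjusted p = 0.0123) and an offset of 0 (adjusted p = 0.0186) also ended it. The 4 replicates gave 0.44 ± 0.12 (SD, n = 4).

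The other probe of Klf3 did not show this difference. It gave −0.02, 0.13, 0.08, 0.01 and −0.15, with values on both sides of 0, and its fitted ratio was 0.01 (95% CI −0.10 to 0.12, adjusted p = 0.927 over probes). Its raw signal was 47 to 128 units in 3D and 50 to 105 in 2D, against 1385 to 3285 and 761 to 2430 for the bright probe, although it passed the background limit on all arrays. The interval of the dim probe does not reach the lower bound of the bright one, 0.33. When both probes were averaged, Klf3 had a ratio of 0.22 and was still called (adjusted p = 0.00279). With a dye term as well, the averaged ratio was 0.19 and the call was lost (adjusted p = 0.0112).

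The Sin3-binding group held the largest ratios. Klf10, also known as TGF-β inducible early gene 1, had 1.02, 0.58, 0.69, 0.82 and 0.77. Replicate 1 was the highest, and the swapped array lay inside the range of the replicates. The fitted ratio was 0.77 (SE 0.06, 95% CI 0.64 to 0.91, adjusted p = 8.31e-06), and the replicates gave 0.78 ± 0.19 (SD, n = 4). By size of ratio Klf10 ranked 606 of 15154 genes. It was called in 12 of 13 settings, with ratios of 0.71 to 1.30, and lost the call with median centring (adjusted p = 0.0756), the setting with the largest ratio.

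Klf11, the close relative of Klf10 that also responds to TGF-β, had 0.64, 0.59, 0.82, 0.76 and 0.29. The replicates agreed within an SD of 0.11 around 0.70, and the swapped array lay below all of them. limma gave 0.62 (SE 0.07, 95% CI 0.46 to 0.78, adjusted p = 9.61e-05). Of 13 settings, only median centring ended the call (adjusted p = 0.118).

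Klf9, which is induced by thyroid hormone and glucocorticoids in other tissues, had 0.23, 0.32, 0.54, 0.43 and 0.75. Here the swapped array lay above all 4 replicates, which gave 0.38 ± 0.13 (SD, n = 4). Over the 5 arrays the ratio was 0.45 (SE 0.07, 95% CI 0.29 to 0.61, adjusted p = 0.000734), or 1.37-fold. The call was lost with Agilent's processed signals (adjusted p = 0.0117), with a background offset of 0 (adjusted p = 0.0181) and with median centring (adjusted p = 0.0735).

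Klf13, the remaining member of the group, had ratios of 0.28, 0.08, 0.04, 0.11 and 0.08. All were above 0 and only replicate 1 exceeded 0.2. The fit gave 0.12 (95% CI 0.01 to 0.22, adjusted p = 0.0819), and it did not pass in any of the 13 settings, in which the ratio ran from 0.08 to 0.38. Its raw signal was low, with 66 to 157 units in 3D.

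Klf15, a factor of amino acid and glucose metabolism, was the only member whose arrays fell on both sides of 0, with −0.09, −0.07, 0.01, −0.01 and −0.03. Its 9 or 10 spots used on an array spread by an SD of 0.07 to 0.16. The ratio over the 5 arrays was −0.04 (95% CI −0.13 to 0.05, adjusted p = 0.515). With no array above background in either condition, these data give only a bound on its level and no fold.

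Because 1 array had swapped dyes, the part of the ratio that follows the dye could be fitted as a second term. This model fits the swapped array exactly, so its ratio lies midway between the replicate mean and that array. The error behind its p-values comes from the 4 replicates and limma's prior, with no part from the swapped array. In this model 6 members were called, against 26% of all genes. Klf3, Klf4, Klf9, Klf10 and Klf11 remained higher, Klf6 was called as lower, and Klf5 was no longer called. For Klf3 and Klf10 the ratios were 0.44 and 0.77 in both models. For Klf11 the ratio moved to 0.50 (adjusted p = 7.47e-05) and for Klf9 to 0.57 (adjusted p = 6.76e-05), so that the order of these genes changed.

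The dye term itself passed for 1 member, Klf6, at 0.35 (95% CI 0.24 to 0.46, adjusted p = 0.00557), where 1.9% of all genes passed. By its size it ranked 132 of 15154 genes. Klf11 had a dye term of 0.20 (adjusted p = 0.0465) and Klf9 one of −0.19 (adjusted p = 0.0792), neither of which passed. The swapped array lay outside the range of the 4 replicates for 4 members (Klf5, Klf6, Klf9 and Klf11), and for 62.7% of all genes. With 1 swapped array, dye and every other feature of that array cannot be told apart.

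**Figure D2:**
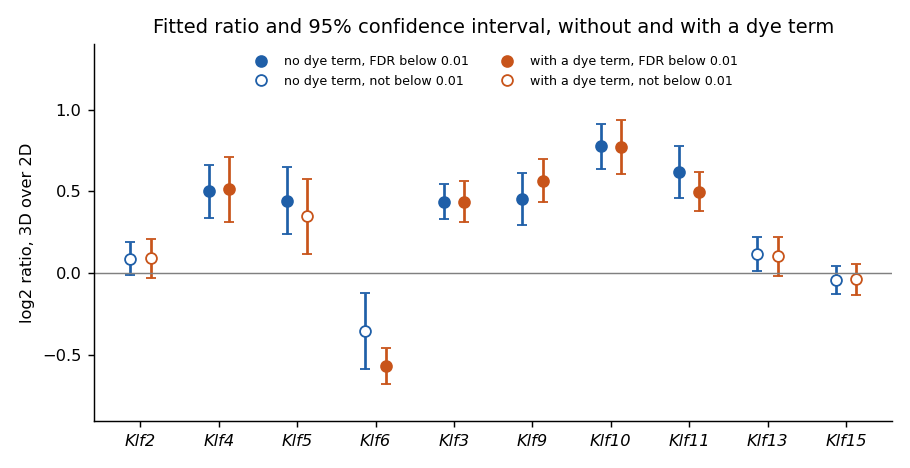
Fitted log2 ratio of 3D over 2D (vertical axis) with its 95% confidence interval for the 10 Klf genes, without a dye term (blue) and with one (orange); filled symbols passed an FDR of 0.01. Klf6 moved from −0.35 to −0.56 and passed only with the term, whereas Klf5 moved from 0.44 to 0.35 and passed only without it. The error behind the orange intervals comes from the 4 replicates and limma's prior.

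The choice of normalization bore on the count of calls more than on direction. Median centring in place of loess, which leaves a dependence of the ratio on brightness in place, raised the ratios of the 6 called members to between 0.92 and 1.30 and left 0 members called, while 7 of 15154 genes were called. With median centring and a dye term together, 7 members were called. Leaving out 1 replicate at a time kept 5 or 6 members called. Klf6 was the only member with a sign that turned in any setting, and it did so with median centring.

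**Figure D3:**
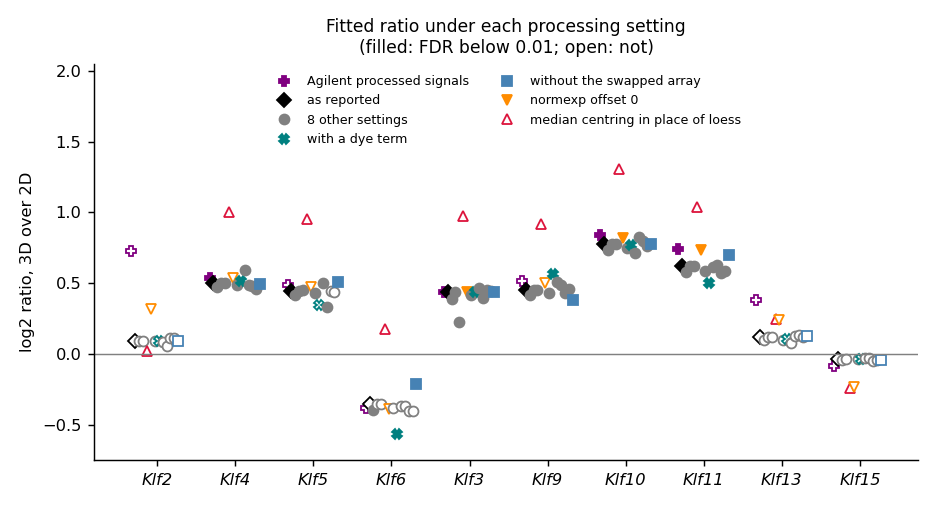
Fitted log2 ratio of 3D over 2D (vertical axis) for each Klf gene under the setting reported and under each alternative; filled symbols passed an FDR of 0.01 and open symbols did not. Red triangles are median centring, where Klf10 reached 1.30 and Klf6 stood at 0.17, and no symbol of this setting is filled.

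The rest of the family moved little. Of 16 other Klf and Sp genes, which share the zinc fingers, 10 were measured and 6 of these were above background. Over all genes 25.9% were called, and 43.4% of those above background. By limma, 0 rose (2 at an unadjusted p under 0.05) and 1 fell, Klf1, a factor of red cell development, at −0.20 (adjusted p = 0.00452), with a median ratio of −0.03. Without replicate 1, 2 or 3, with an offset of 0 and with median centring, 0 genes of the list were called, and over the 13 settings there were 0 to 2. Sp1, the ubiquitous GC box factor, is named after its values were seen. It gave 0.30, 0.56, 0.58, 0.53 and −0.42, so that the swapped array had the opposite sign, and its dye term was 0.46 (adjusted p = 0.00457).

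Cofactors that Klf proteins recruit were measured for 10 of 14 listed genes, of which 3 rose and 0 fell in limma (6 and 1 at an unadjusted p under 0.05), with a median of 0.18. These were Ctbp2 (0.59, adjusted p = 0.00027) and Hdac1 (0.52, adjusted p = 0.00113), and Ctbp1 (0.25, adjusted p = 0.0012), which is named after its values were seen. Both CtBP genes, whose products are the partners of Klf3, were among these 3. For scale, 25.9% of all genes and 43.4% of those above background were called in either direction, and a link to Klf3 was not tested. Ctbp2 ran from 0.62 to 0.77 over the replicates and stood at 0.19 in the dye swap. Hdac1 ran from 0.58 to 0.66 over the replicates and stood at 0.05 in the dye swap. Its dye term passed (0.29, adjusted p = 0.00601), and beside that term the ratio was 0.34 (adjusted p = 0.000168). Sin3b, a scaffold of the Sin3 complex, stood at −0.20 and did not pass (adjusted p = 0.0112), although all 5 arrays lay below 0. In the model with a dye term its ratio was −0.26, and it was the 1 cofactor called as lower there. Between 0 and 6 cofactor genes were called over the 13 settings.

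Of the early TGF-β targets, a response that also includes Klf10 and Klf11, 12 of 13 were measured, 5 rose and 2 fell, and the median was 0.06. Called genes made up 25.9% of all genes and 43.4% of those above background. Id2 (2.24, adjusted p = 7.22e-08) and Id1 (1.47, adjusted p = 1.49e-06), inhibitors of helix-loop-helix factors, rose most. Smad7 (1.29), Smad6 (1.17) and Tgif1 (0.52), which restrain the pathway, complete the 5, and are named after their values were seen. Ccn2, a matricellular protein and also a target of YAP, fell by 1.25 on the log2 scale (adjusted p = 9.47e-08), and Pmepa1 (−0.60, named after its values were seen) was called as lower although replicate 1 lay at 0.01.

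Upstream of Klf2 and Klf4 in endothelium lies the kinase path from MEKK3 through MEK5 and ERK5 to the MEF2 factors, held back by the CCM proteins. Of 11 listed genes 8 were measured, 1 rose and 0 fell in limma (2 and 0 at an unadjusted p under 0.05), with a median of 0.02. The share called over all genes was 25.9%. The riser was Map2k5, which encodes MEK5, at 0.20 (adjusted p = 0.00842). Without any 1 of the 4 replicates, 0 genes of the list were called. The same held with an offset of 0, Agilent's processed signals, the deposited value table and median centring. Over all settings there were 0 to 2. Mef2d resembled Klf6, with 4 replicate ratios between −0.06 and 0.01 and −0.81 on the swapped array, and is named after its values were seen.

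Reported targets of Klf4, Klf5 and Klf6 were measured for 22 of 23 listed genes, of which 2 rose and 5 fell (median −0.07). Of the 22, 20 were above background. For comparison, 25.9% of all genes and 43.4% of those above background were called in either direction. Krt19, a keratin of simple epithelia, rose by 1.23 (adjusted p = 4.21e-06) and Egfr, the receptor of epidermal growth factor, by 0.23 (adjusted p = 0.00277). Atf3, a stress-induced factor, fell by 1.71 (adjusted p = 2.37e-07), and Cdk1, the mitotic kinase, fell by 1.35 (adjusted p = 2.19e-06). Ccnb1 (−1.27), Birc5 (−1.18) and Bax (−0.37) are the other 3 that fell and are named after their values were seen. Of the genes that fell, Cdk1, Ccnb1 and Birc5 act in mitosis. The cell cycle inhibitor Cdkn1a, a target often cited for Klf4 and Klf6, stood at 0.06 and did not pass (adjusted p = 0.648).

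**Figure D4:**
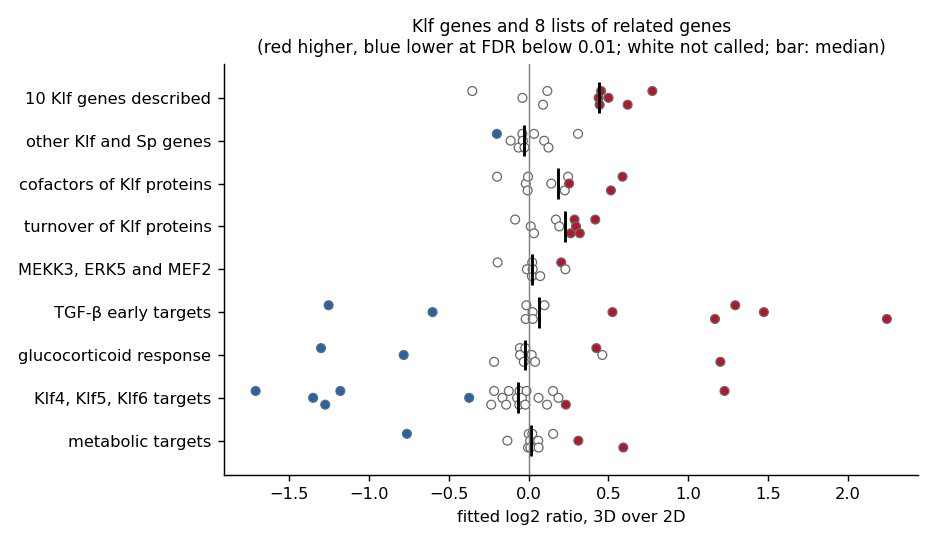
Fitted log2 ratio of 3D over 2D (horizontal axis) of each measured gene in the set of 10 Klf genes and in 8 lists of related genes (vertical axis); red passed as higher, blue as lower, and white did not pass, and bars are medians. The median of the 10 Klf genes was 0.44, and the TGF-β list reached from −1.25 (Ccn2) to 2.24 (Id2) around a median of 0.06.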

How the data were processed

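RNA of 5 Agilent 2-colour arrays was analysed. The authors' spot and background intensities (median pixel values) and flags for outliers and background were deposited as read by Agilent Feature Extraction 10.7.3.1, per the file headers, without normalization, beside processed intensities, which that software had background-subtracted and dye-normalized. The deposited value table holds log2 ratios that the authors made in limma by normexp, loess and quantiles, with the offset not given in the sources used here. All 5 columns ran 3D over 2D when set against the scanner files (r = 0.995 to 0.998), with medians of −0.0064 to 0.0011.

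From the median intensities, ratios were computed here in R 4.3.3 with limma 3.58.1 by normexp (offset 50), loess with controls at weight 0 and quantiles of the average intensity. Outlier spots (1.12 to 1.6% per array) were left out and 0 spots were saturated. Spots of a probe were averaged. Of 30367 probes 17998 (59.3%) had a symbol by RefSeq accession (table of build GRCr8; arrays designed on rn4), giving 15154 genes. A probe counted as above background on an array where at least 0.5 of its spots were flagged so. Replicate arrays correlated at r = 0.871 to 0.946 across genes, and the swapped array at 0.734 to 0.765 with them. limma's moderated test used 1 coefficient, or 2 with the dye, and Benjamini-Hochberg adjustment over all genes (FDR 0.01). The gene fit with 1 coefficient had 4 residual and 5.12 prior degrees of freedom. The model with a dye term has fewer residual ones. With 4 replicates, an exact two-sided sign test cannot go below p = 0.125. Promoters were searched on both strands for each motif. The fit was tested on simulated data, where all changed genes were recovered but false calls exceeded the nominal FDR, and more so when the noise followed each gene's own spread in place of the moderated one.

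Alternatives were an offset of 0, Agilent's processed signals, the value table, median centring, quantiles over all channels, a dye term, a filter on dim probes, the mean of all probes, and leaving out each array. The members, gene lists and tests were chosen with earlier results of these data known. In each list at most 2 risers and 2 fallers were named among calls with 1 sign over the 5 arrays and with signal above background in the brighter condition, and the others named were chosen after their values were seen. Columns of the scanner software's own ratios and p-values were not used.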

Additional observations from a re-analysis of the deposited data

How the results depend on the processing

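The number of Klf genes called depended on the background correction and the normalization. Against 6 members called, all higher, 0 were called with median centring and 3 with an offset of 0, again all higher. With a dye term 6 members were called, and 3 with a dye term and an offset of 0. The count of members called as lower, 0 in the reported setting, was 1 with a dye term, 1 in the authors' value table and 1 without the swapped array, and this member was Klf6 each time. Klf6 was the only reversal, at 0.17 with median centring. Of 12 probes, 7 were called, against 3 with Agilent's processed signals, 0 with median centring and 2 with an offset of 0. Over all genes, 3918 were called, against 7 with median centring, of which 100% were higher, and 2222 with an offset of 0; in the reported setting 55.6% of calls were higher. Leaving out 1 replicate at a time gave 5 to 6 members, 6 to 7 with a dye term, 5 to 6 probes and 3006 to 3308 genes. Quantiles over all channels, a filter on dim probes and the mean over probes did not change the 6 members called. No paired analysis was possible because the 2D cultures were pooled and the swapped array carries no replicate number. Signal over background limits Klf2 and Klf15, and the number of arrays limits the precision of all values. The cause of these differences between settings was not tested.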

Other observations

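Glucocorticoid-responsive genes, a set that commonly includes Klf9, moved in both directions. Of 12 measured genes 2 rose and 2 fell, with a median of −0.03. The share called over all genes was 25.9%, and over those above background it was 43.4%. Mt2A, a metallothionein, rose by 1.20 (adjusted p = 0.000168) and Tsc22d3, a classical glucocorticoid target, by 0.42 (adjusted p = 0.000261). Errfi1, an inhibitor of the EGF receptor, fell by 1.30 (adjusted p = 4.16e-07) and Dusp1, a phosphatase of MAP kinases, fell by 0.78 (adjusted p = 1.79e-05). The receptor gene itself, Nr3c1, was above background on 2 arrays in each condition and did not pass (0.04, adjusted p = 0.588).

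Metabolic genes that Klf9, Klf10 or Klf15 are known to regulate in liver or muscle were measured for all 12 listed, but only 5 were above background. Of the 12, 2 rose and 1 fell, where 25.9% of all genes and 43.4% of those above background were called. Gpt, alanine aminotransferase, rose by 0.59 (adjusted p = 3.81e-06) and Bcat2, the mitochondrial branched-chain aminotransferase, by 0.31 (adjusted p = 0.00405), while Fasn, fatty acid synthase, fell by 0.76 (adjusted p = 3.15e-06). Bcat2 stood at 0.003 in the dye swap, and its ratio with a dye term was 0.20 (adjusted p = 0.0066). Of genes for the turnover of Klf proteins, 10 of 11 were measured, 5 rose and 0 fell in limma (7 and 0 at an unadjusted p under 0.05), with a median of 0.23. The same shares over all genes serve as the scale here. Fbxo32, a subunit of an SCF ubiquitin ligase, was above background on 5 arrays in 3D and on 0 in 2D. Its fitted ratio was 0.42 (SE 0.04, adjusted p = 4.8e-05), or 1.34-fold, with the 2D signal near background. The ligase Smurf1 rose by 0.30 (adjusted p = 0.00221). Btrc (0.32), Siah1 (0.29) and Vhl (0.26) are the other 3, named after their values were seen. Btrc stood at −0.03 in the dye swap, and with a dye term its ratio was 0.19 and its call was lost (adjusted p = 0.0139). Without replicate 2 only 2 genes of this list were called, without replicate 3 there were 3, and over all 13 settings there were 0 to 6.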
